A study of Mus musculus with 16 samples.

Results

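The genes described here are 7 markers and regulators of plasma cells, the antibody-secreting end stage of the B cell lineage, in mouse bone: Jchain, Irf4, Prdm1, Xbp1, Sdc1, Mzb1 and Tnfrsf17. They were taken by symbol from a table of 25239 genes, and all 7 were found and had an adjusted p-value, as did 15396 genes in all. A second table listed 13083 peaks of N6-methyladenosine (m6A, a methyl mark on adenosines inside RNA), of which 3 carried the name of one of these genes. The study compared bone of wild type mice after ovariectomy, the surgical removal of the ovaries used as a model of bone loss after estrogen withdrawal, with bone after a sham operation. Each arm had 4 input libraries, made from RNA before pull-down, and 4 immunoprecipitated (IP) libraries, made from fragments bound by an m6A antibody. The labels used here give no strain, age or time after surgery and do not say whether each library came from a separate mouse. Arms were read from the library titles, because the treatment field says ovariectomy for all 8 IP libraries, those titled NC included.

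Plasma cells arise when an activated B cell shuts down its B cell programme and turns its endoplasmic reticulum (ER) over to making antibody. Irf4 and Prdm1 (Blimp-1) are the transcription factors of that switch, and Xbp1, which is activated by an unusual splicing step under ER stress, expands the secretory machinery. Long-lived plasma cells settle in the bone marrow, where stromal Cxcl12 attracts them and the cytokine APRIL keeps them alive through the receptor Tnfrsf17 (BCMA). Several of these genes also act elsewhere: Irf4 and Mzb1 in B cells and their precursors, Jchain and Mzb1 in plasmacytoid dendritic cells, Xbp1 in osteoblasts and other secretory cells, and Sdc1 (CD138) in epithelium and early B cells.

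Both tables hold comparisons made by the authors and no values of single libraries, so each result below is a deposited log2 fold change ± its standard error (SE), and the spread between replicates enters only through that SE. Neither table records which arm forms the numerator. Fold changes are therefore called positive or negative and not higher or lower after ovariectomy, and a sign in one table cannot be set against a sign in the other. A gene counted as called had a deposited adjusted p under 0.05. The 95% intervals run 1.96 SE to each side. The tissue is whole bone with its marrow content, in which fewer cells of a type and less RNA per cell cannot be told apart. The mean normalized counts in the authors' deposited table summed to 43717045, and genes with an adjusted p had means of at least 12.4.

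The 7 plasma cell genes did not share a direction. Irf4 and Mzb1 were called with positive signs, Jchain and Sdc1 with negative signs, and Prdm1, Xbp1 and Tnfrsf17 had negative values that did not pass. The authors' deposited table thus called 2 of 7 members positive, where 6.07% of all tested genes were called positive, and 2 of 7 negative, where 6.11% were. Calls of either sign made up 12.2% of tested genes in the authors' deposited table, and 46.7% of tested genes had a positive value; the counts of the lists below stand beside these shares. The members' median fold change was -0.33, beside -0.02 over all 15396 tested genes in the authors' deposited table.

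**Figure D1:**
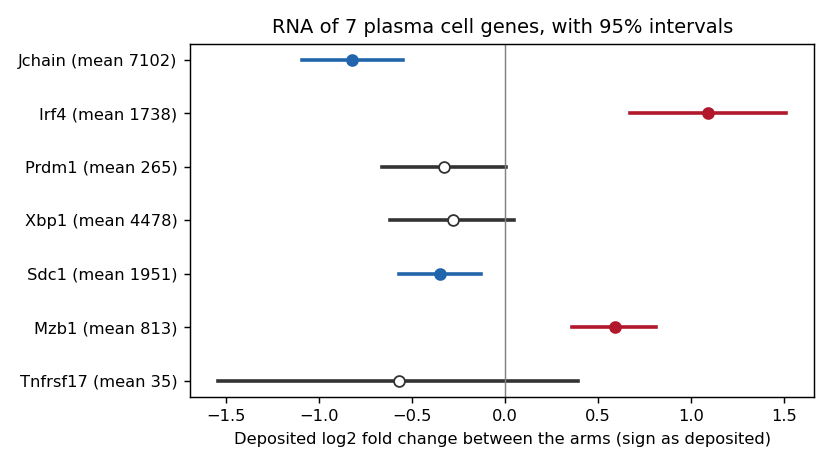
Deposited log2 fold change between the arms (x axis, sign as deposited) for each of the 7 plasma cell genes, with its mean normalized count in brackets; points are the deposited values, bars the 95% intervals, filled red points are called positive, filled blue points called negative, and open points were not called. Irf4 and Mzb1 lie to the right of 0, Jchain and Sdc1 to the left, and the intervals of the other 3 genes reach past 0.

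Among the transcription factors, only Irf4 was called. Irf4, which is needed both for plasma cell formation and, earlier, in B cell precursors, had a fold change of 1.09 ± 0.22 at a mean of 1738 normalized counts in the authors' deposited table (adjusted p = 4.3e-05 by their Wald test). That value corresponds to a ratio between the arms of 2.13, with a 95% interval from 1.59 to 2.85. Only 0.844% of tested genes had a higher fold change than Irf4 in the authors' deposited table. Prdm1, the repressor that closes the B cell programme, had -0.33 ± 0.17 at a mean of 265 counts in the authors' deposited table (adjusted p = 0.199). Its interval, from -0.66 to 0.003, lay almost wholly below 0. Xbp1, the secretory regulator, had -0.28 ± 0.17 at a mean of 4478 counts in the authors' deposited table (adjusted p = 0.297). The interval of Xbp1, from -0.62 to 0.05, leaves room for a ratio of 0.65 as well as for one of 1.04. The intervals of Prdm1 and Xbp1 did not overlap that of Irf4, which began at 0.67.

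The 2 members of the antibody assembly machinery were both called, with opposite signs. Jchain joins IgM and IgA monomers into secreted polymers and is among the most abundant transcripts of plasma cells. It had the smallest p of the 7, with -0.82 ± 0.14 at a mean of 7102 counts in the authors' deposited table (adjusted p = 6.5e-07), which placed it at rank 66 of 15396 by p. The ratio for Jchain was 0.567, with an interval from 0.47 to 0.684. Mzb1, an ER cochaperone that helps to assemble antibody in marginal zone B cells and plasma cells, had 0.59 ± 0.12 at a mean of 813 counts in the authors' deposited table (adjusted p = 4.5e-05). The ratio for Mzb1 was 1.5, from 1.28 to 1.76. The intervals of this pair, -1.09 to -0.55 for Jchain and 0.36 to 0.81 for Mzb1, lay on opposite sides of 0.

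Of the surface proteins, Sdc1 was called and Tnfrsf17 was not. Sdc1, the heparan sulfate proteoglycan by which plasma cells are usually sorted, had -0.35 ± 0.11 at a mean of 1951 counts in the authors' deposited table (adjusted p = 0.020). The ratio for Sdc1 was 0.784, from 0.674 to 0.912, and of the 4 called members it stood nearest to 1. This call was lost at a threshold of 0.01. Tnfrsf17, the receptor for APRIL that is largely restricted to plasma cells, had -0.57 ± 0.49 in the authors' deposited table (adjusted p = 0.494). Its mean was 35.0 counts, and its interval, from -1.54 to 0.39, allowed ratios from 0.345 to 1.31. That interval holds both 0 and the value of Jchain, so a change of that size could not be told from none at this depth.

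The SE of some members was wide for their counts. Among the 4759 tested genes with a mean within a factor of 2 of that of Irf4, the median SE was 0.12, and 84.4% had a smaller SE than Irf4 in the authors' deposited table. Xbp1 was similar, with a smaller SE in 82.2% of 3312 such genes (median SE 0.11), and Jchain had one smaller in 73.1% of 2295 in the authors' deposited table. Mzb1 and Prdm1 were on the narrow side, where 27.5% and 28.3% of their count neighbours had a smaller SE in the authors' deposited table. Sdc1 and Tnfrsf17 lay near the middle, at 41.6% and 52.5% in the authors' deposited table.

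**Figure D2:**
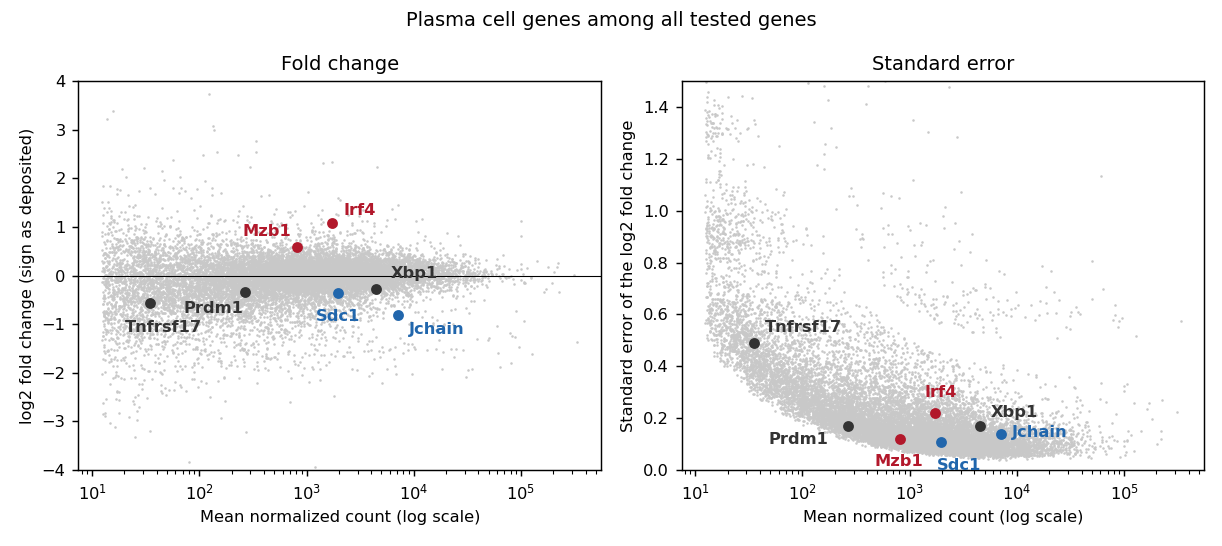
Each grey point is a tested gene, plotted by mean normalized count (x axis, log scale) against log2 fold change (left, sign as deposited) or its SE (right); the 7 plasma cell genes are labelled, red for called positive, blue for called negative and dark grey for not called. On the left Irf4 lies above 0 and Jchain below, and on the right Tnfrsf17 has the largest SE of the 7 (0.49). Outside the axes fall 10 genes beyond 4 in fold change and 53 with an SE above 1.5.

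The genes that a plasma cell normally switches off were mostly positive. In the list of 13 B cell identity genes, 12 were positive and 6 were called, all with a positive sign, and the median was 0.33 in the authors' deposited table, where 46.7% of all tested genes were positive and 6.07% were called positive. Bach2, a repressor of Prdm1, had 1.35 ± 0.27 (adjusted p = 4.4e-05) in the authors' deposited table. Spib, an Ets factor of mature B cells, had 1.26 ± 0.29 in the authors' deposited table. Ets1, another Ets factor, had 0.30 ± 0.06 in the authors' deposited table. Pax5 and Ebf1, which establish B cell identity, had 1.02 ± 0.30 (adjusted p = 0.010) and 0.70 ± 0.23 (adjusted p = 0.029) in the authors' deposited table. Bcl6, the germinal centre repressor that opposes Prdm1, was the 1 negative gene and was not called, at -0.14 ± 0.17 in the authors' deposited table. Pax5, Ebf1 and Bcl6 were named after their values were seen.

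Most markers of B cell precursors had the sign of Irf4 and Mzb1. Of 8 such markers, 6 were called positive and 1 negative, with a median of 2.28 in the authors' deposited table. The authors' deposited table gave the recombination gene Dntt 2.34 ± 0.24, and Rag2 had 2.76 ± 0.42. Vpreb1, part of the surrogate light chain, had 2.53 ± 0.32 and its partner Igll1 had 3.07 ± 0.51 in the authors' deposited table. Erg, a factor shared with stem cells and endothelium, was the marker called negative, at -1.02 in the authors' deposited table (named after its value was seen). All 7 tested markers of mature B cells were positive, with a median of 0.57, and 2 were called, among them Cd79a (1.07 ± 0.22), in the authors' deposited table. This list and that of B cell identity share members, Ms4a1 and Cd22 among them. These positive B lineage values were known before the lists were made, and their part in the values of Irf4 and Mzb1 was not tested.

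Other regulators and surface proteins of plasma cells were mostly positive. Of 17 genes, 15 were positive and 6 were called, all positive, with a median of 0.30 in the authors' deposited table. The 2 negative genes were Tnfrsf13b (-0.78 ± 0.30, adjusted p = 0.068) and Zbtb20 (-0.23 ± 0.32, adjusted p = 0.688) in the authors' deposited table. Neither was called, and both were named after their values were seen. Pou2af1 (OBF-1), the B cell coactivator of octamer factors, had the smallest p of this list, with 1.27 ± 0.21 in the authors' deposited table (adjusted p = 2e-07). Slamf7, a surface receptor used as a drug target in myeloma, had 0.89 ± 0.21, and the ectoenzyme Cd38 had 0.59 ± 0.19 in the authors' deposited table. Cd93, which is found on early B cells, endothelium and long-lived plasma cells, had 0.37 ± 0.10 in the authors' deposited table. Most of these genes are expressed by other B lineage or blood cells as well.

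The receptors and ligands of the BAFF and APRIL system gave no call. Beside Tnfrsf17, the receptors Tnfrsf13b (TACI) and Tnfrsf13c (BAFF receptor) had -0.78 ± 0.30 (adjusted p = 0.068) and 0.71 ± 0.32 (adjusted p = 0.128) in the authors' deposited table. The ligands Tnfsf13 (APRIL) and Tnfsf13b (BAFF) had -0.17 ± 0.26 and 0.07 ± 0.35 in the authors' deposited table. Of these 5 genes, 2 had an unadjusted p under 0.05 in the authors' deposited table, as did 25.7% of all tested genes, and with 12.2% of all tested genes called, 0 of 5 is near the background. The 4 beside Tnfrsf17 were named after their values were seen. In the wider list of survival signals, 12 of 14 genes were tested and 2 were called positive and 1 negative, with a median of 0.13 in the authors' deposited table. Cxcl12, the stromal chemokine that draws plasma cells to the marrow, was the negative call, at -0.51 ± 0.13 in the authors' deposited table. Its receptor Cxcr4, from the list of surface proteins and named after its value was seen, was called positive at 0.53 ± 0.19 (adjusted p = 0.048) in the authors' deposited table. The survival factor Bcl2l1 (Bcl-xL) had 0.43 ± 0.14 and the cytokine receptor Il21r 0.42 ± 0.15 in the authors' deposited table. Il6 and Il5, with means of 4.03 and 1.74 counts, had no adjusted p in the authors' deposited table.

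Genes of the ER and of secretion, many of them targets of Xbp1 or of its partner pathways, had more positive than negative calls. Most of these genes were not called. Xbp1 itself had a negative value that was not called, and a value per gene does not separate its spliced form. Whether these genes follow Xbp1 was not tested. Among 23 folding enzymes and chaperones, 7 were called positive and 1 negative, with a median of 0.10 in the authors' deposited table. Hyou1, Manf and Sdf2l1, which are induced by ER stress, had 0.35 ± 0.08, 0.34 ± 0.10 and 0.43 ± 0.13 in the authors' deposited table. Txndc5, a disulfide isomerase abundant in plasma cells, was the negative call at -0.35 ± 0.08 in the authors' deposited table. Of 13 sensors and factors of the unfolded protein response, 3 were called positive and 1 negative in the authors' deposited table. The positive ones, Ppp1r15a (0.36 ± 0.10), Ddit3 (0.46 ± 0.13) and Atf4 (0.30 ± 0.09), all act in the stress response that works through translation control. The sensors Eif2ak3 (PERK), which triggers that response, and Ern1, the kinase and nuclease that splices Xbp1 RNA, had 0.001 ± 0.07 and -0.03 ± 0.10 in the authors' deposited table and were named after their values were seen. Creb3, an ER-bound transcription factor, was the negative call at -0.30 ± 0.09 in the authors' deposited table. These calls were of small changes: with a minimum absolute log2 fold change of 0.5, the folding list went from 8 calls to 0 and the unfolded protein response list from 4 to 0. At an adjusted p threshold of 0.01 each of these lists kept 2 calls, and with Bonferroni adjustment 0.

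Of 13 degradation genes 3 were called, and of 25 export genes 2, beside 12.2% of all tested genes. Syvn1, the ubiquitin ligase of ER-associated degradation, had 0.80 ± 0.10 (adjusted p = 3.6e-12) and its partner Herpud1 0.46 ± 0.08 in the authors' deposited table. Selenos, another component of that pathway, had -0.35 ± 0.08, and the other 10 of its 13 genes were not called in the authors' deposited table. The degradation list kept 3 calls at an adjusted p threshold of 0.01 and 2 with Bonferroni adjustment. With a minimum absolute log2 fold change of 0.5 it kept 1. In the list of 25 translocon, signal peptidase and export genes, the median was 0.03, with Sec61a1 (0.23 ± 0.06) called positive and Srpr (-0.18 ± 0.06) called negative in the authors' deposited table. Every cell that secretes protein uses these genes, and plasma cell RNA cannot be separated from that of other cells here. The 12 immunoglobulin constant region genes that were also chosen were not analysed here.

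**Figure D3:**
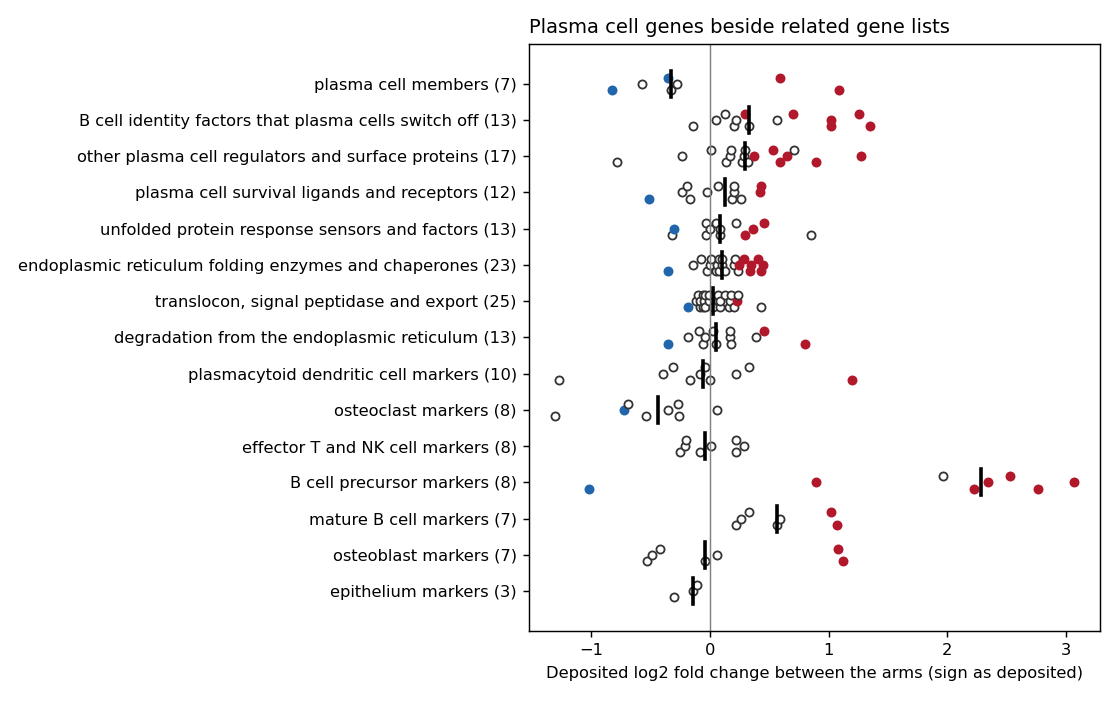
Each point is a tested gene, placed by its deposited log2 fold change (x axis, sign as deposited) in the row of its list, with the number of tested genes in brackets; black bars mark list medians, filled red and blue points are called positive and negative, and open points were not called. The plasma cell genes spread to both sides of 0, while the B cell precursor row reaches from -1.02 to 3.07.

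Markers of other cells that can express the members had calls in both directions, beside 12.2% of all tested genes called. Of 10 markers of plasmacytoid dendritic cells, which also hold Jchain and Mzb1 RNA, 3 were positive and 7 negative, with a median of -0.06 in the authors' deposited table. Only 1 was called, Ly6d with 1.20 ± 0.22 in the authors' deposited table. Ly6d also marks early B cells. Siglech, the most specific marker of that list, had -0.31 ± 0.27 (adjusted p = 0.503) in the authors' deposited table and was named after its value was seen. Cox6a2 had the largest value of that list in size, -1.27 ± 0.57 (adjusted p = 0.123) in the authors' deposited table, and was also named after its value was seen. Runx2 is in both this list and that of osteoblasts. Osteoclasts use Prdm1 during their differentiation, and 7 of 8 osteoclast markers were negative with a median of -0.44, of which Ctsk was called at -0.72 ± 0.20 in the authors' deposited table. Of 7 osteoblast markers, 3 were positive and 4 negative, with a median of -0.04 in the authors' deposited table. Col1a1 (1.12 ± 0.32) and Bglap (1.08 ± 0.34) were called positive, and Ibsp, Alpl and Spp1 had -0.53, -0.49 and -0.42 without a call in the authors' deposited table (the last 3 named after their values were seen). Bglap has near-identical copies, and its reads may be divided among them. For epithelium, which carries Sdc1, Cdh1, Epcam and Krt18 had means of 443, 304 and 177 counts, while Krt8 had 2.96 and Krt5 and Krt14 were listed at 0 in the authors' deposited table. The 3 tested epithelium markers were negative and 0 were called in the authors' deposited table. The part of these cell types in the members' values was not tested.

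Of the 7 members, 2 carried m6A peaks, Xbp1 and Sdc1, beside 44.3% of all tested genes. The authors' deposited table listed 2 peaks in Xbp1 and 1 in Sdc1, all on the plus strand, and none in Jchain, Irf4, Prdm1, Mzb1 or Tnfrsf17. Of tested genes with a mean count within a factor of 2 of Jchain, 73.2% (1680 of 2295) carried a peak in the authors' deposited table. The same share was 60.2% around Irf4, 48.9% around Mzb1 and 30.3% around Prdm1 in the authors' deposited table. Around the members with a peak it was 70.2% for Xbp1 and 61.5% for Sdc1. Around Tnfrsf17, 89 of 1779 genes had one, so the lack of a listed peak there is what most genes of that abundance showed. A peak that is not listed may be one that the calling threshold did not reach. These shares were matched on mean count only, and not on transcript length.

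The upstream Xbp1 peak lay on chromosome 11 from 5521140 to 5521962 and joined 2 exon blocks of 61 and 40 bases, so that it spanned a splice junction. Its enrichment of IP over input was 1.53 in the authors' deposited table (log10 FDR = -9.61), above that of 24% of all peaks. The downstream Xbp1 peak, from 5525095 to 5525244, was a single block of 150 bases with an enrichment of 2.2 in the authors' deposited table, above that of 74.7% of peaks. The Sdc1 peak, on chromosome 12 from 8792012 to 8792209, was a single block of 198 bases with an enrichment of 1.87 (log10 FDR = -6.52) in the authors' deposited table. The median over all peaks was 1.82, so the 3 peaks lay within the common range and only the downstream Xbp1 peak reached 2. The genome build of these coordinates is not given for mouse in the sources used here, and positions are counted from 1.

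None of the 3 peaks passed a difference p under 0.05 between the arms. The log2 differences in enrichment were 0.015 (p = 0.94) and -0.069 (p = 0.896) for the Xbp1 peaks in the authors' deposited table. For the Sdc1 peak the difference was -0.354 (p = 0.203), which is larger in size than that of 85.5% of all peaks in the authors' deposited table. A difference p under 0.05 was held by 4.92% of all peaks, and an FDR under 0.05 by 0.0229%, in the authors' deposited table. The peak table gives no SE, so no interval can be set around these differences, and the p-values do not show that methylation was equal.

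**Figure D4:**
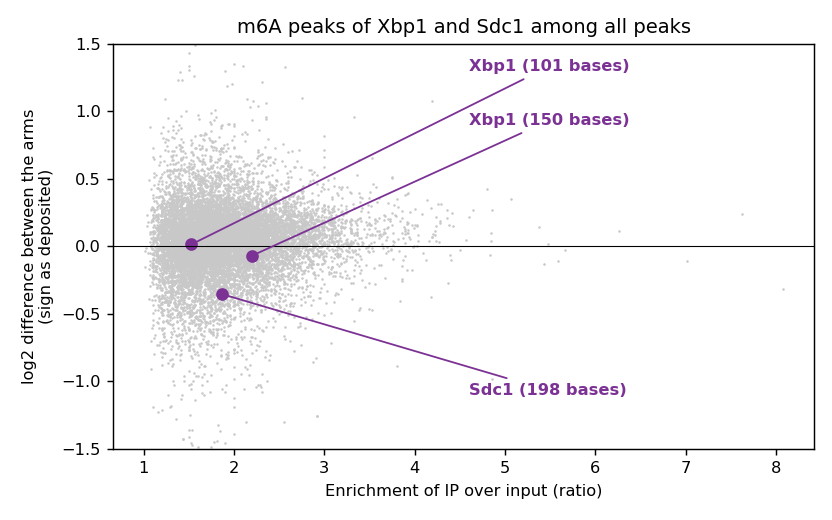
Each grey point is an m6A peak, plotted by its enrichment of IP over input (x axis, ratio) and its log2 difference in enrichment between the arms (y axis, sign as deposited); purple points are the 2 Xbp1 peaks and the Sdc1 peak, with their exonic lengths. The Xbp1 peaks lie close to 0 on the y axis and the Sdc1 peak at -0.354; 13 peaks beyond 1.5 on the y axis are not drawn.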

How the data were processed

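Total RNA of mouse bone was profiled by stranded, UMI-tagged mRNA sequencing and by m6A immunoprecipitation, per the labels' protocols. HISAT2, StringTie and DESeq are named without a role in the submitters' processing notes, as is rn6, a rat build; the peak caller is not given in the sources used here. Per the file headers, the authors deposited for each gene a mean normalized count (a signal, taken here to cover the input libraries, which the table does not name), a log2 fold change with its SE, a Wald score, and p-values before and after adjustment. Per the file headers, the authors deposited for each peak a p-value, the log10 of this p and of the FDR, an IP over input ratio, and a log2 difference between the arms, and a score that is the log10 of that difference's p or FDR. The Wald score equalled fold change over SE, and Benjamini-Hochberg adjustment over 15396 genes gave the deposited adjusted p-values. Depth per library is not in the tables.

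No count model was fitted, because the tables hold no values per library; the planned left-out libraries, DESeq2 and block fits were not run. The members and gene lists were chosen with earlier results of these data known, and no set test was made. From each list, up to 4 called genes were named by adjusted p, or the 2 with the smallest p where none was called; genes named otherwise are marked, and a gene that the rule takes is not reported here. Effector T and NK cell and epithelium lists had no call. Selenos was matched by its newer symbol. All 7 members were found in the RefSeq annotation GRCm38.p6, and no other gene overlapped them there. Adjustment was tested on simulated data. Python 3.11.15, numpy 2.4.6, pandas 2.3.3, scipy 1.17.1, statsmodels 0.14.6 and matplotlib 3.10.9 were used.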

Additional observations from a re-analysis of the deposited data

How the results depend on the processing

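Jchain, Irf4 and Mzb1 kept their calls under all 6 alternatives: adjusted p thresholds of 0.01 and 0.1, adjustment with no filter on low counts or over genes with a mean of at least 50, a minimum absolute log2 fold change of 0.5, and Bonferroni adjustment. These alternatives change only the adjustment, threshold or minimum applied to the deposited values. No earlier processing step was varied, and a threshold of 0.1 cannot lose a call. Sdc1 lost its call at 0.01, with the minimum fold change and with Bonferroni, so that negative calls among the members went from 2 to 1 under each of these 3, while positive calls stayed at 2. Over the related lists together, positive calls went from 37 to 22 at a threshold of 0.01, to 21 with the minimum fold change and to 13 with Bonferroni. Negative calls there went from 7 to 3 with the minimum fold change and to 0 with Bonferroni. The cause is the stricter rule itself. With an enrichment of at least 2, the members' peaks went from 3 to 1, and with a peak FDR under 0.01 all 3 remained. No peak of a member passed a difference p under 0.05 or 0.01 or an FDR under 0.05. No paired analysis was possible because the tables hold comparisons and no values per library. For the same reason leaving out libraries was not possible. The SE limits what can be read for Tnfrsf17, whose mean was 35.0 counts.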

Other observations

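Outside the 7 members, the lists held 150 peaks in 82 genes in the authors' deposited table. Of these, 8 (5.33%) had a difference p under 0.05, beside 4.92% of all peaks, and 0 had an FDR under 0.05 in the authors' deposited table. With a positive sign were 7 of the 8, and 1 was negative, while the median difference over all peaks was 0.0522 in the authors' deposited table. The negative one was a peak in Lair1, with -0.584 (difference p = 0.0117) in the authors' deposited table. Peaks in Itga4 and Spp1 had 0.471 (difference p = 0.00245) and 0.148 (difference p = 0.0245) in the authors' deposited table. The smallest p was that of a peak in Ikzf3 (Aiolos, a zinc finger factor of late B cells and plasma cells). This peak had a log2 difference of 0.293 (difference p = 0.000513, FDR = 0.261) in the authors' deposited table. It joined 2 blocks of 107 and 94 bases on chromosome 11, between 98490483 and 98516944. A peak in Ikzf1 (Ikaros), the related factor, on the same chromosome from 11707868 to 11748374, had 0.29 (p = 0.0112, FDR = 0.706) in the authors' deposited table. Eif2ak3 (PERK), a sensor of ER stress, had a peak with 0.38 (p = 0.0457), and the translocon genes Sec62 and Sec63 had peaks with 0.179 (p = 0.0135) and 0.138 (p = 0.0331) in the authors' deposited table. The 20 peaks in 9 B cell identity genes had a median enrichment of 2.01, and 0 of them passed a difference p under 0.05 in the authors' deposited table.

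Markers of effector T and NK cells, in which Prdm1 also acts, had 4 positive and 4 negative values, and 0 of 8 were called in the authors' deposited table, with 0 also at an unadjusted p under 0.05 of their Wald test. Cd3e, a chain of the T cell receptor complex, had -0.20 ± 0.16 (adjusted p = 0.467) and the granule protein Nkg7 -0.25 ± 0.23 in the authors' deposited table. Among epithelium markers, Epcam had -0.30 ± 0.22 and Krt18 -0.14 ± 0.15 in the authors' deposited table, and 0 of the 3 tested had an unadjusted p under 0.05.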
